A study of Drosophila melanogaster with 9 samples.

Results

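The genes described here encode the subunits of the proteasome, measured in dissected brains of Drosophila melanogaster at 3d, 30d and 60d of age. Members were the genes whose own probe set carried a symbol starting with Prosalpha, Prosbeta, or Rpn or Rpt followed by a digit. The rule used names only and no measured value. It found 40 genes among the 11982 that had a probe set of their own, and each of the 40 had exactly 1 probe set. They comprised 12 standard subunits of the core particle, 14 standard subunits of the regulatory particle and 14 paralogs, which are extra copies marked by R or T in the symbol. The annotation's reference holds 8 more genes of these names (Prosalpha1 and Prosalpha1R, which share a probe set, and Prosbeta1, Rpn9, Rpn10, Rpt1, Rpt6 and Rpt6R), and these were not analysed here.

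The study asked how brain transcripts change as flies age, with 3 arrays at each of the 3 ages. All groups were brain tissue from flies kept on the same cornmeal food at 25°C and left to age naturally, with no drug or mutation named. The labels give neither strain nor sex, nor whether the arrays of 1 age came from separate pools of flies. The p-values below therefore measure the spread between these arrays, which may be technical.

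The proteasome is the cell's main machine for breaking down proteins that carry a ubiquitin tag. Its core particle is a barrel of stacked rings, with alpha subunits forming the gated outer rings and beta subunits forming the inner rings that hold the cutting sites. The regulatory particle caps the barrel: its base holds the Rpt ATPases that unfold and thread substrates, and its lid holds the Rpn11 enzyme that takes off the ubiquitin chain. Neurons depend on this machine to renew synaptic and damaged proteins. In yeast and in cultured fly and mammalian cells, genes of both particles are known to be switched on together when proteasome activity is low.

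Each probe set had a linear signal intensity on each array, and the arrays as deposited had a common trimmed mean. Median signals ran from 60.6 to 67.6 on the 3d arrays, from 76.1 to 78.3 on the 30d arrays and from 66.5 to 77.0 on the 60d arrays. The 3d replicate 1 stood apart: its log2 ratio of the 3' to the 5' GAPDH control probe set, a sign of RNA or amplification quality, was 5.06, against 1.58 to 2.07 on the other 8 arrays. Neuronal markers were strongly present, with 13 of 14 matched genes above the 60th percentile of signal, including elav at 1237 to 1522. Photoreceptor markers such as Arr2, at 3330 to 4863, were present too. Of the 8 matched retina markers 6 fell at 30d and 6 at 60d against 3d, where 21.4% and 10.6% of all genes tested fell. The part of these markers and of RNA quality in the results below was not tested.

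A gene was tested if its log2(signal + 1) exceeded 5.73, the 40th percentile, on at least 3 arrays. This kept 29 of the 40 members: 25 of the 26 standard subunits and 4 of the 14 paralogs. The standard subunit left out was Prosalpha4, an alpha-ring subunit, whose signal was 36.3, 31.0 and 44.4 at 3d, 35.7, 31.2 and 31.2 at 30d and 52.5, 31.7 and 45.0 at 60d. Mean signals over the 9 arrays ran from 5.0 for the paralog Prosbeta5R1 to 484.2 for Rpn11. Different probe sets bind with different strength, so these levels are not ranked between genes. Changes are differences of mean log2(signal + 1), given with the SE of limma's fit to all 9 arrays.

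**Figure D1:**
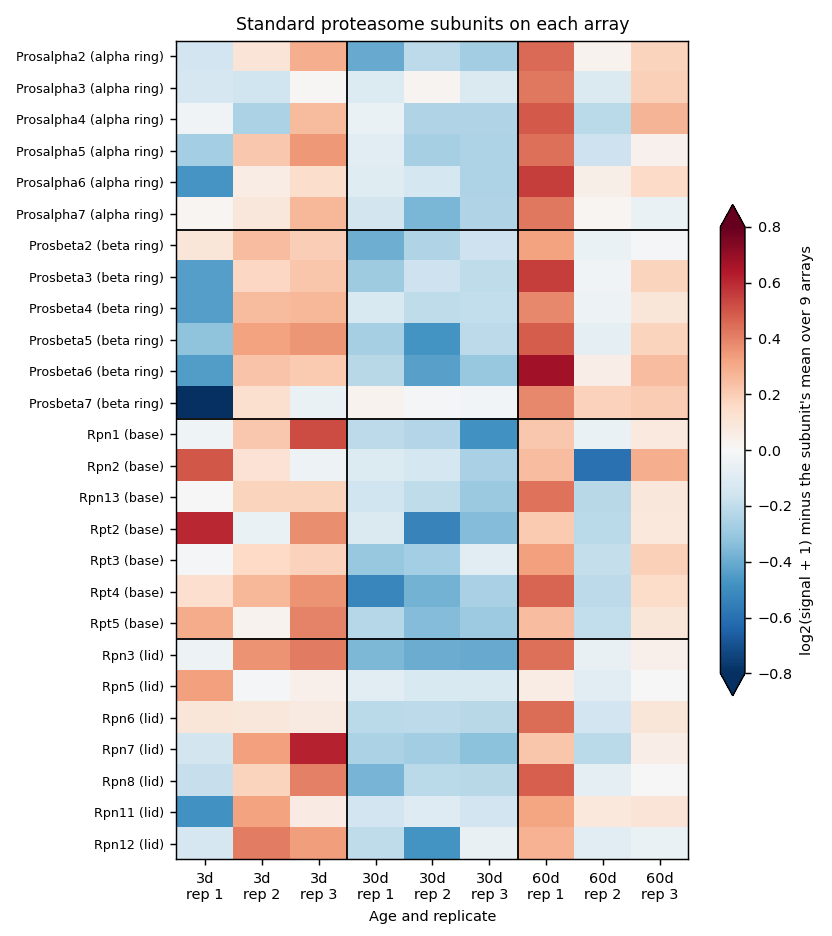
Deviation of each of the 26 standard subunits (rows, core above regulatory particle) from its own 9-array mean on the log2 scale, for each array (columns, 3d to 60d). The 3 columns at 30d are the most alike, 3d replicate 1 is low for most core subunits but not for most of the base, and 60d replicate 1 is high for both particles.

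At 30d the standard subunits were lower than at 3d in 23 of 25 cases, with a median change of -0.36, against -0.02 over all 8121 genes tested. With limma and Benjamini-Hochberg adjustment over all genes, 7 of the 25 fell and 0 rose at an adjusted p under 0.05. Before adjustment 10 were lower and 0 higher at p under 0.05. Of all genes tested 42.3% passed in this comparison, 21.4% that fell and 20.9% that rose, so 7 of 25 is close to the background for falls. Arrays of the 2 ages did not overlap for 15 of the 25 subunits, all lower at 30d, while 29.7% of all genes had such lower values. Fewer cells of a type and less RNA per cell cannot be told apart in whole brain RNA. Markers of cell types moved in this comparison too, in both directions. Of 9 haemocyte markers tested 5 fell and 1 rose (median -0.70), and the summed signal of the 10 matched was 1307 to 1413 at 30d, against 2021 to 2570 at 3d. The fat body markers had a median of -0.27 with 1 of 8 that fell and 1 that rose, and 3 of 9 glia markers fell while 1 rose (median -0.36). Of 13 neuron markers 3 fell and 0 rose (median -0.24), whereas 4 of 8 muscle markers rose and 0 fell (median 0.405). Their part in the subunits' values was not tested.

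Of the 7 subunits that fell between 3d and 30d with all arrays in the fit, 6 belonged to the regulatory particle. This split depended on 3d replicate 1, as given below. In the base 4 of 7 measured subunits fell, and the 30d arrays lay below the 3d arrays without overlap for 7 of 7. Rpt4, an ATPase of the unfolding ring, had signals of 105, 117 and 126.5 at 30d, against 167, 182 and 195 at 3d. Every 30d array was thus lower than every 3d array, and the change was -0.64 ± 0.17 (limma adjusted p = 0.0155), which is 1.56-fold lower. Rpt2, whose tail helps to open the core's gate in yeast, had signals of 115, 85.6 and 97.4 at 30d, against 190, 120 and 161 at 3d. Its groups came within a few signal units of each other without overlapping, and its change was -0.64 ± 0.19 (limma adjusted p = 0.0221).

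Rpt5, a further ATPase of the ring, gave 131, 121 and 125 at 30d, against 189, 157 and 203 at 3d. The 30d values were close together and all below the 3d values (-0.53 ± 0.16, limma adjusted p = 0.0202). Rpn1, the base scaffold that docks ubiquitin shuttle proteins, gave 62.3, 61.1 and 51.3 at 30d, against 70.3, 83.9 and 104 at 3d. It too showed no overlap (-0.54 ± 0.17, limma adjusted p = 0.0231), although its 30d signals lay near the filter, which equals a signal of 52. The other 3 measured base subunits, Rpn2 (a scaffold), Rpn13 (a ubiquitin receptor) and Rpt3 (an ATPase), had changes of -0.36, -0.34 and -0.33, and none passed the test.

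In the lid 2 of 7 measured subunits fell. Rpn3, a structural lid subunit, had signals of 112, 109 and 109 at 30d, against 140, 185 and 192 at 3d. The 30d arrays agreed closely and sat below all 3d arrays, with a change of -0.63 ± 0.17 (limma adjusted p = 0.0150), which is 1.55-fold lower. Rpn7, another structural subunit, gave 81.4, 80.2 and 77.4 at 30d, against 87.6, 122 and 150 at 3d. Its groups were separated by a narrow gap set by 3d replicate 1 (-0.55 ± 0.19, limma adjusted p = 0.0381). Rpn11, the deubiquitinase of the lid, gave 430.5, 444 and 429 at 30d, against 342, 597 and 500 at 3d. Its groups overlapped, because 3d replicate 1 was the lowest of the 6 arrays, and its change of -0.11 ± 0.19 did not pass the test (limma adjusted p = 0.668).

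The core particle had 1 subunit that fell between 3d and 30d, of 11 tested, and 9 of the 11 changes were below 0 (median -0.30). Prosbeta2, which carries the trypsin-like cutting site, had signals of 259, 288 and 303 at 30d, against 364, 403.5 and 389 at 3d. No arrays overlapped, and the change was -0.44 ± 0.14 (limma adjusted p = 0.0288). Prosbeta5, the subunit with the chymotrypsin-like site, had an equal estimate of -0.44 ± 0.20 but a wider spread (limma adjusted p = 0.102). Prosalpha2, an outer-ring subunit, gave 345, 394 and 376 at 30d, against 410, 490 and 559 at 3d, and its change of -0.38 ± 0.16 also missed the threshold (limma adjusted p = 0.0762) though its arrays did not overlap. Prosalpha3 and Prosbeta7 had changes of 0.03 and 0.25, the only positive estimates among the standard subunits.

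These calls depended on single arrays. Without 3d replicate 3, and likewise without 30d replicate 2, 0 standard subunits passed the test, while without 3d replicate 1 there were 15 that fell. In the same fits the number of genes called over the whole array set was 1526, 1729 and 4492, against 3437 with all arrays, and the standard subunits stayed below 0 in at least 22 of 25 cases. The 15 without 3d replicate 1 included Prosalpha2, Prosalpha5, Prosalpha7, Prosbeta2, Prosbeta4, Prosbeta5 and Prosbeta6 of the core. The split of calls between the particles thus depended on that array.

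Between 30d and 60d every one of the 25 standard subunits tested had a higher mean at 60d, with changes of 0.10 to 0.64 and a median of 0.34, against 0.02 over all genes. None passed limma's test after adjustment, and before adjustment 11 had a p under 0.05, each of them higher, with 0 lower. Few genes of any kind passed: 44 of 8121, or 0.542%, with 0.529% higher and 0.0123% lower. The 60d arrays lay above the 30d arrays without overlap for 17 of the 25, where 17.2% of all genes showed this pattern and 10.1% the opposite one. The core contributed 9 of 11 such subunits and the regulatory particle 8 of 14. This comparison shares the 30d arrays with the one above, so the 2 sets of changes are not independent. Beside it, the 8 fat body markers tested had a median change of 0.52 with 0 that passed (limma, 3 higher and 0 lower unadjusted), and the 9 haemocyte markers one of 0.27 with 1 that rose. The 8 muscle markers tested had a median of 0.045 with 1 that rose, and the glia markers one of 0.18 with 0 that passed. The neuron, retina and testis markers had medians of -0.085, -0.17 and -0.235, with 0 that passed. The part of these cells in the result was not tested.

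The largest estimate was that of Prosbeta6, a beta-ring subunit without a cutting site, with signals of 300.3, 195 and 223 at 60d, against 161, 139 and 152 at 30d. All 60d arrays were higher (0.64 ± 0.21, limma adjusted p = 0.205). Prosalpha2 gave 624, 465.5 and 516 at 60d, against 345, 394 and 376 at 30d, again without overlap (0.52 ± 0.16, limma adjusted p = 0.190). Rpn3 gave 196, 138 and 148 at 60d, against 112, 109 and 109 at 30d. Its change was 0.53 ± 0.17 (limma adjusted p = 0.205), and the 95% interval of 0.15 to 0.90 for this single gene, before adjustment, lay above 0.

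Rpt4 showed how wide the 60d group was: its signals were 210, 131 and 168 at 60d, against 105, 117 and 126.5 at 30d. Its lowest 60d array nearly reached its highest 30d array, and the change was 0.52 ± 0.17 (limma adjusted p = 0.217). Rpn6, the lid subunit that braces the cap against the core, was even across 30d arrays at 331, 332 and 329, against which the 60d arrays read 523, 344 and 411. Its change was 0.34 ± 0.15 (limma adjusted p = 0.327). Leaving out 60d replicate 2 gave 1 call, Rpt4. The median over the 25 standard subunits was 0.23 without 60d replicate 1 and 0.46 without 60d replicate 2.

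Comparing the oldest with the youngest brains, 60d against 3d, 0 of the 25 standard subunits passed limma's test, and before adjustment 1 had a p under 0.05, on the higher side, with 0 lower. Their median change was 0.00 and their range -0.28 to 0.51, where all genes tested had a median of 0.04 and 53.6% were above 0. Of all genes tested 18.7% passed, 8.08% that rose and 10.6% that fell. The particles lay on either side of 0: 10 of 11 core subunits had estimates above 0 (median 0.14), and 11 of 14 regulatory subunits had estimates below 0 (median -0.12), among them 7 of 7 in the base. Single arrays decided this: the regulatory median was 0.03 without 60d replicate 2, and the core median was 0.02 without 3d replicate 1 or without 60d replicate 1. It was -0.12 with both of those arrays left out.

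That subunit was Prosbeta7, a beta-ring subunit. Its signals were 551, 480.5 and 487 at 60d, against 235, 462 and 406 at 3d. The ages did not overlap (13.5% of all genes were higher at 60d in this way), and the change was 0.51 ± 0.21 (limma adjusted p = 0.109). The lowest of these signals was that of 3d replicate 1, and without that array the change of Prosbeta7 was 0.22. Prosalpha6, an outer-ring subunit, gave 228, 161 and 173 at 60d, against 112, 162 and 171 at 3d. Its ages overlapped, and the change of 0.34 ± 0.19 missed the threshold (limma adjusted p = 0.215).

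Among regulatory subunits the smallest p-values were those of Rpt2 and Rpn7. Rpt2 gave 144, 107 and 132 at 60d, against 190, 120 and 161 at 3d, with overlap (-0.28 ± 0.19, limma adjusted p = 0.312). Rpn7 gave 114, 83.7 and 101 at 60d, against 87.6, 122 and 150 at 3d, also with overlap (-0.24 ± 0.19, limma adjusted p = 0.381). The 95% interval of Rpt2, from -0.70 to 0.14, and that of Rpn7, from -0.66 to 0.17, show how large a difference these arrays could leave undetected. Rpn11 had a change of 0.20 ± 0.19 with overlap (limma adjusted p = 0.465), and it turned to -0.025 without 3d replicate 1. When the first arrays of both ages were left out, 4 standard subunits fell (Prosalpha5, Rpn3, Rpn7 and Rpn12), where the genes called over the whole array set numbered 4053 in place of 1518.

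**Figure D2:**
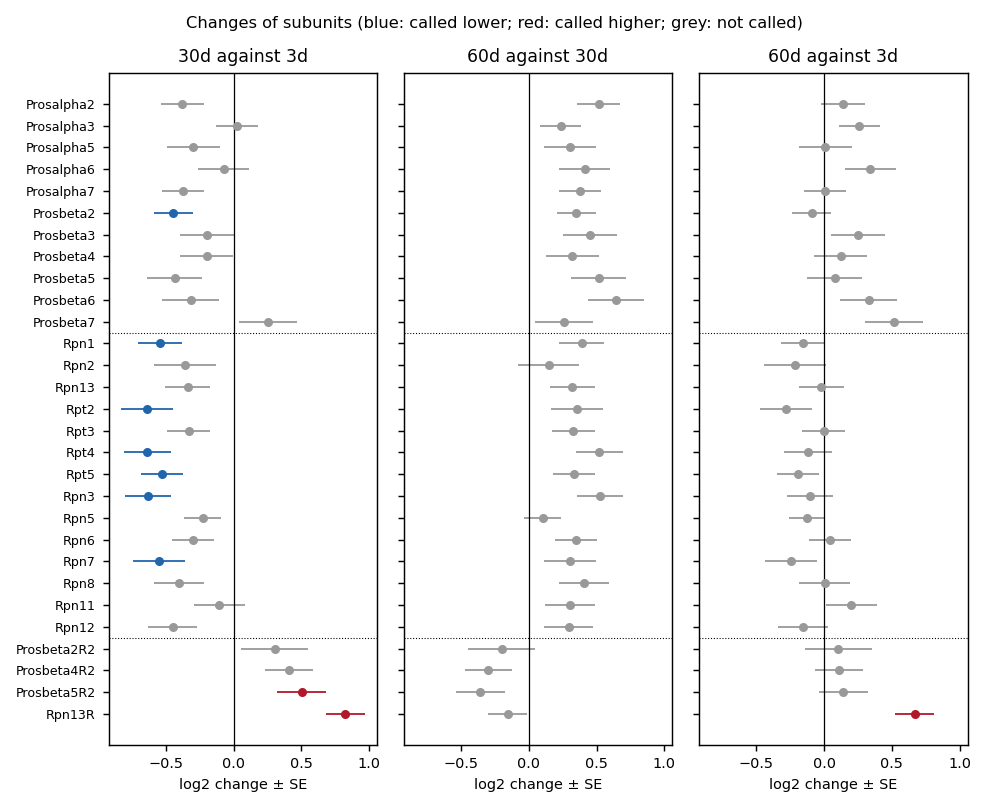
Change in log2(signal + 1) with its SE for the 25 standard subunits and 4 paralogs tested, in panels for 30d against 3d, 60d against 30d and 60d against 3d. Blue marks members that fell and red those that rose at an adjusted p under 0.05. The points lie mainly left of 0 in the 30d panel, all standard subunits lie right of 0 from 30d to 60d, and the 60d panel straddles 0 with base subunits on its left.

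Following each subunit over the 3 ages, the mean was lowest at 30d for 23 of the 25, for 14 of 14 in the regulatory particle and 9 of 11 in the core. The exceptions were Prosalpha3 and Prosbeta7, lowest at 3d. The highest mean fell at 60d for 10 of 11 core subunits, and at 3d for 11 of 14 regulatory subunits. The share of genes with such an order over the whole array set was not computed, and neighbouring ages often did not differ beyond their spread.

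Whether the change from 30d to 60d differed from that from 3d to 30d was tested as a contrast in the same limma fit. Of the 25 standard subunits, 6 passed with a positive difference and 0 with a negative one, where 10.2% of all genes were higher and 8.26% lower. The 6 were Rpn3 (1.16 ± 0.30, adjusted p = 0.0349), Rpt4 (1.16 ± 0.30, adjusted p = 0.0356), Rpn1 (0.93 ± 0.29, adjusted p = 0.0463), Rpt5 (0.87 ± 0.27, adjusted p = 0.0473), Prosalpha2 (0.89 ± 0.28, adjusted p = 0.0474) and Prosbeta2 (0.80 ± 0.25, adjusted p = 0.0476). The median over the 25 was 0.74, against 0.09 over all genes. Without the filter on low signals, 0 of these 6 passed and only 2 genes passed over the whole array set. The number of members that passed, paralogs included, ran from 0 to 22 when single arrays were left out, against 7 with all arrays.

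Relative to the regulatory particle, the core was higher at the later ages than at 3d by a small amount. For each array the median deviation of a particle's subunits from their own 9-array means was taken. The core gave -0.32, 0.16 and 0.22 at 3d, then -0.14, -0.21 and -0.21 at 30d, then 0.44, -0.03 and 0.18 at 60d. The regulatory particle gave 0.00, 0.18 and 0.34 at 3d, then -0.21, -0.26 and -0.26 at 30d, then 0.30, -0.17 and 0.09 at 60d. Both were lowest and tightest at 30d, while the 3d and 60d arrays spread widely and overlapped each other.

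The core minus the regulatory particle was -0.32, -0.01 and -0.12 on the 3d arrays, 0.07, 0.04 and 0.05 on the 30d arrays and 0.14, 0.15 and 0.09 on the 60d arrays. The 3 arrays of an age averaged -0.15 ± 0.15 for 3d, 0.05 ± 0.01 for 30d and 0.13 ± 0.03 for 60d (SD, n = 3). The 3 ages did not overlap in this difference. No p is given for this difference between the particles, because it is a score over members. Taken as the difference between the medians of the subunits' changes, the core exceeded the regulatory particle by 0.26 for 60d against 3d, by 0.13 for 30d against 3d and by 0.04 for 60d against 30d. Without 3d replicate 1 the first 2 of these values were 0.17 and 0.06, and the last turned to -0.01 under quantile normalization.

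**Figure D3:**
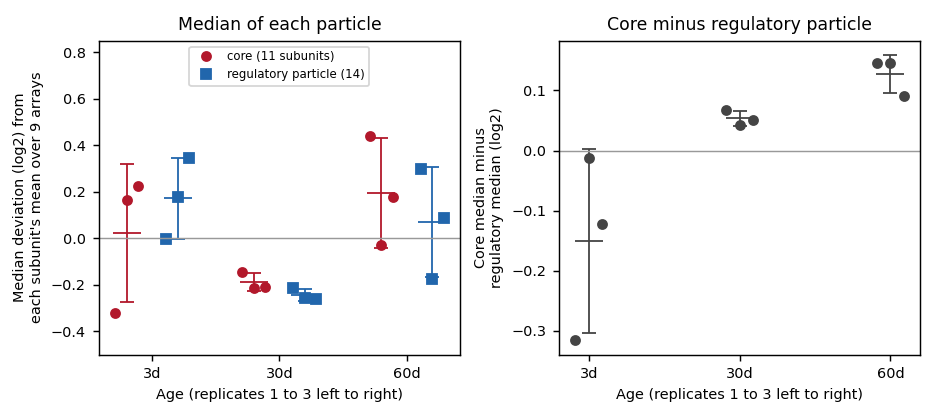
Left, the median deviation of the core (11 subunits) and of the regulatory particle (14 subunits) from the subunits' 9-array means for each array, on the log2 scale, by age, with bars for mean and SD (n = 3). Right, the core minus the regulatory particle for each array, which is lowest at 3d and lies between 0.09 and 0.15 at 60d.

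Single arrays weighed differently on the particles. The 3d replicate 1 was below the mean of the other 3d arrays for 11 of 11 core subunits (median -0.57, from -0.88 to -0.06). For the regulatory particle it was below for 9 of 14 (median -0.18, from -0.68 for Rpn11 to 0.46 for Rpn2), and the median over all genes was -0.04. This is the array with the high 3' to 5' ratio, and the part of RNA quality in the core's low values was not tested. With that ratio as a covariate in limma, 15 standard subunits fell at 30d against 3d, in place of 7. The 60d replicate 1 was above the mean of the other 60d arrays for 11 of 11 core and 14 of 14 regulatory subunits (medians 0.43 and 0.34, against 0.04 over all genes), with a log2 3' to 5' ratio of 1.80. The summed markers of fat body, blood cells, glia and neurons were higher on the same array than on the other 60d arrays. On 60d replicate 1 the glia sum was 8070, against 6967 and 6780, and the neuron sum 13579, against 12553 and 12315. The muscle and retina sums of that array lay between those of the other 60d arrays, and its testis sum lay below both. The summed signal of the 10 matched fat body markers, led by the yolk protein genes Yp1, Yp2 and Yp3, was 12073 there, against 5074 and 8920 on the other 60d arrays. The fat body marker Fbp2 was lower there, at 47.5, against 92.2 and 62.6. The summed signal of the 10 haemocyte markers was 2206, against 1487 and 1650, with the phagocytosis receptor gene NimC1 at 333, against 116 and 149. Not all of them were higher: crq read 331.5, against 356 and 372, and srp read 84.1, against 80.3 and 96.4. On the 3d arrays the haemocyte sum was 2570, 2021 and 2463. The part of such tissue in the subunits' values was not tested.

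Scaling also mattered for levels against 3d. Centring each array on its median moved the median change of all genes to -0.29 for 30d against 3d and to -0.14 for 60d against 3d. That centring shifts all genes of an array alike, so it cancels in values taken relative to the median of all genes, whereas quantile normalization and cyclic loess need not. Relative to all genes, the regulatory particle was at -0.41 for 30d against 3d with the deposited scaling, -0.50 with quantile normalization and -0.48 with cyclic loess. The core was at -0.28 with the deposited scaling, and at -0.17 and -0.18 with these alternatives, which is over 1.5 times smaller. For 60d against 3d the core's median estimate was 0.14 with the deposited scaling and -0.03 with median centring. Relative to all genes it was 0.10 with the deposited scaling, 0.18 with quantile normalization and 0.20 with cyclic loess, and the regulatory particle was at -0.16, -0.15 and -0.15.

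Between 3d and 30d, and again between 30d and 60d, most paralogs differed in the opposite direction from most standard subunits. Several of them, such as Prosalpha6T, are known for replacing their standard counterpart in the fly testis. All 14 had a higher mean at 30d than at 3d and at 60d than at 3d, and 12 of 14 were lower at 60d than at 30d. Only 4 passed the filter, and Prosbeta4R2 passed mainly through its 30d arrays, so the direction of those 4 is no support on its own. The 10 that failed had mean signals of 5.0 to 43.3. Prosbeta5R1, the lowest, had log2(signal + 1) of 2.72, 2.54 and 1.53 at 3d, 2.56, 2.61 and 2.01 at 30d and 2.87, 3.46 and 2.20 at 60d, with overlap between all ages. At such low signals the whole array set moved alike: of the 3861 genes that failed the filter 81.4% were higher at 30d than at 3d (median 0.46), 72.7% were higher at 60d than at 3d (median 0.22) and 26.5% were higher at 60d than at 30d (median -0.22).

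Rpn13R, a paralog of the ubiquitin receptor Rpn13, was the member with the clearest change. Its signals were 125, 128 and 105 at 3d, 206, 193 and 237 at 30d and 172, 192 and 207 at 60d. Every 30d and every 60d array exceeded every 3d array, and the later ages overlapped each other. It rose by 0.83 ± 0.14 at 30d against 3d (limma adjusted p = 0.0032, 1.77-fold) and by 0.67 ± 0.14 at 60d against 3d (limma adjusted p = 0.0102, 1.59-fold). The change at 30d passed in 22 of 22 alternatives and that at 60d in 21 of 22, the exception being without 60d replicate 3 (0.61, limma adjusted p = 0.0563). Rpn13 itself read 176, 171 and 160 at 30d, against 197, 222 and 222 at 3d, without overlap, and its change of -0.34 did not pass.

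Prosbeta5R2, a paralog of the catalytic Prosbeta5, read 118, 133.5 and 147 at 30d, against 105, 99.9 and 77.0 at 3d. It rose without overlap by 0.50 ± 0.18 (limma adjusted p = 0.0447), a call kept in 11 of 22 alternatives. At 60d it read 83.0, 125 and 105, which overlapped both other ages. Prosbeta4R2 and Prosbeta2R2 had changes of 0.41 and 0.31 at 30d against 3d and did not pass. Beside these values, 6 of the 11 testis markers tested rose at 30d against 3d and 0 at 60d against 3d (limma, 1 higher at an unadjusted p under 0.05). Of all genes tested 20.9% rose at 30d and 8.08% at 60d. The summed signal of the 17 matched markers was 1523, 1576 and 1259 at 3d, 2027, 2066 and 2142 at 30d and 1422, 2007 and 1813 at 60d. The 6 that rose were ProtA, Mst84Db, dj, can, Mst87F and ocn. Of these, Mst84Db, Mst87F and ocn read below the filter's signal of 52 on every 3d array. They passed the filter only through later arrays, so their direction is no support on its own. Among tested genes with a mean below the 60th percentile, 62.8% were higher at 30d than at 3d (median 0.26). ProtA, a sperm chromatin protein gene, read 221, 252 and 253 at 30d, against 159, 156 and 118 at 3d, without overlap (0.76 ± 0.20, limma adjusted p = 0.0136). The sperm gene dj read 278, 273 and 295 at 30d, against 216, 160 and 143 at 3d, also without overlap (0.72 ± 0.22, limma adjusted p = 0.0229). At the low end of the list, the germline differentiation gene bam read 2.3 to 9.1 over all arrays. The part of these transcripts in the paralogs' values was not tested.

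**Figure D4:**
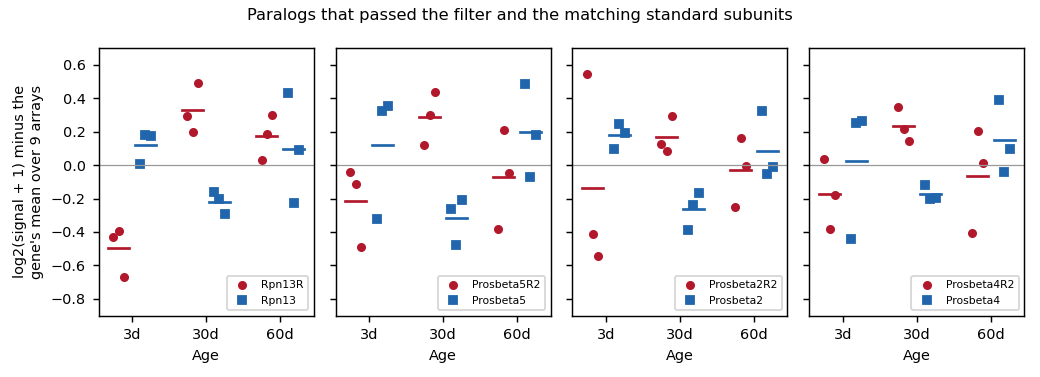
Signal of the 4 paralogs that passed the filter and of their standard counterparts on each array by age (3 arrays per age). Rpn13R is higher at 30d and 60d than at 3d while Rpn13 is lowest at 30d. All 4 paralogs have their highest mean at 30d, and the 60d arrays of Prosbeta5R2, Prosbeta2R2 and Prosbeta4R2 overlap both other ages.

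Factors that bind or load the proteasome were examined as a group of 13 genes tested, from 28 names. For 30d against 3d, 3 fell and 0 rose, with a median of -0.25, so the share that fell is about that of all genes (21.4%). They were Usp14, a deubiquitinase that docks on Rpn1, at -0.48 ± 0.14 (limma adjusted p = 0.0206), Rad23, a shuttle that brings ubiquitinated proteins to the proteasome, at -0.55 ± 0.17 (adjusted p = 0.0241), and CG8858 at -0.68 ± 0.14 (adjusted p = 0.00585). Usp14 read 149, 145 and 165 at 30d, against 196, 213 and 233 at 3d. Rad23 read 516, 492 and 471.5 at 30d, against 899, 627 and 667 at 3d, and neither gene's ages overlapped. For 60d against 3d none passed (limma, 3 higher and 1 lower with unadjusted p under 0.05), the smallest p being that of CG12321 (0.52 ± 0.18, adjusted p = 0.0614). For 60d against 30d none passed (limma, 4 higher and 0 lower unadjusted), and Sem1, a small protein of the lid in yeast and mammals, had the smallest p (0.41 ± 0.15, adjusted p = 0.249).

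A list of 8 genes tested held transcription factors linked to proteasome genes in animals, with the cnc regulator Keap1 and the glycanase Pngl. In it foxo, a factor of insulin and stress signalling, rose at 60d against 3d (0.52 ± 0.13, limma adjusted p = 0.0209) and at 30d against 3d (0.59 ± 0.13, adjusted p = 0.00722). It read 200.2, 248 and 221 at 3d, 327, 338 and 342 at 30d and 305, 342 and 309 at 60d, so no array of a later age overlapped the youngest. Hsf, the heat shock factor, fell at 30d against 3d (-0.49 ± 0.14, limma adjusted p = 0.0186), with 214, 213.5 and 202 at 30d, against 276, 284 and 330 at 3d. The fly relative of Nrf factors, cnc, had changes of 0.24 ± 0.14 at both later ages and did not pass (limma adjusted p = 0.197 at 30d and 0.254 at 60d). For 60d against 30d none of the 8 passed (limma, 1 higher and 0 lower unadjusted), and crc, the ATF4 homologue, had the smallest p (0.34 ± 0.13, adjusted p = 0.272).

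Genes for ubiquitin and its conjugation numbered 50 tested. For 30d against 3d, 18 fell and 2 rose, with a median of -0.22, where 21.4% of all genes fell and 20.9% rose. Ube3a, a ubiquitin ligase, fell by 0.69 ± 0.14 (limma adjusted p = 0.00503) and CSN1b, a subunit of the COP9 signalosome, fell by 0.64 ± 0.14 (adjusted p = 0.00667). Its paralog CSN1a rose by 1.04 ± 0.29 (limma adjusted p = 0.0171). CSN1a read 84.2, 90.3 and 78.7 at 30d, against 25.8, 59.9 and 42.4 at 3d. Of its 3d signals only 59.9 exceeded the filter's signal of 52. CSN1a thus passed the filter mainly through later arrays, so its direction is no support on its own. The other that rose was fzy, an activator of the mitotic ubiquitin ligase, at 0.55 ± 0.17 (adjusted p = 0.0241). For 60d against 3d, 3 fell and 0 rose: CSN1b (-0.49 ± 0.14, limma adjusted p = 0.0320), ari-2 (-0.77 ± 0.23, adjusted p = 0.0358) and Ube3a (-0.46 ± 0.14, adjusted p = 0.0405). Both counts were below the shares of all genes, of which 10.6% fell and 8.08% rose at 60d against 3d. The ligase ari-2 read 157, 132 and 153 at 60d, against 390.5, 191 and 214 at 3d, without overlap, and 3d replicate 1 was the highest by far. For 60d against 30d none passed (limma, 3 higher and 1 lower unadjusted), and fzy had the smallest p (-0.59 ± 0.17, adjusted p = 0.156).

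Of 25 deubiquitinases outside the lid tested, 5 fell and 3 rose for 30d against 3d, and 3 fell and 2 rose for 60d against 3d. These counts were near or below the shares of all genes, which were 21.4% and 20.9% at 30d and 10.6% and 8.08% at 60d. Usp30, which acts at mitochondria in mammals, read 159, 151 and 151 at 30d, against 331, 254 and 362 at 3d (-1.02 ± 0.18, limma adjusted p = 0.00311). At 60d against 3d it was also lower (-0.77 ± 0.18, adjusted p = 0.0138). Yod1 fell at both ages (-0.62 ± 0.13, limma adjusted p = 0.00606 at 30d, and -0.47 ± 0.13, adjusted p = 0.0291 at 60d), and trbd, the trabid homologue, fell at 60d against 3d (-0.49 ± 0.14, adjusted p = 0.0286). Uch-L5R, a paralog of the proteasome-bound Uch-L5, read 57.2, 70.7 and 74.3 at 60d, against 32.2, 40.6 and 31.2 at 3d, and rose by 0.94 ± 0.16 (limma adjusted p = 0.00318). It rose by 0.95 ± 0.16 at 30d against 3d (limma adjusted p = 0.00261). All its 3d signals lay below the filter's signal of 52. Uch-L5R was thus tested only through the later ages, where it was high, and its direction is no support on its own. Among tested genes with a mean below the 60th percentile, 62.8% were higher at 30d and 64.9% at 60d than at 3d. The other genes of the list that rose were scny, at 60d against 3d (0.49 ± 0.14, limma adjusted p = 0.0368) and at 30d against 3d (0.43 ± 0.14, adjusted p = 0.0341), and faf at 30d against 3d (0.43 ± 0.13, adjusted p = 0.0220). For 60d against 30d none passed (limma, 1 higher and 0 lower unadjusted), the smallest p being that of Usp12-46 (0.43 ± 0.16, adjusted p = 0.265).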

How the data were processed

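Transcripts were measured on 9 Affymetrix Drosophila 2.0 arrays, 3 per age. The deposited table holds 1 linear signal intensity per probe set and array for 18952 probe sets, made by the authors. Per the submitters' processing notes, GCRMA and MAS5 were named, with no role or version. Per the labels' protocols, RNA was taken up in Trizol and labelled with a biotin cDNA kit. The values are linear, and the trimmed mean, leaving out 2% at each end, was 150.002 on each array.

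From these, log2(signal + 1) was taken with no further normalization. The 183 control probe sets were left out, 402 with several genes and 4720 with none were not named, and the highest-mean probe set stood for a gene. Group means for 3 ages were fitted with limma 3.58.1 in R 4.3.3 (6 residual and 5.5 prior degrees of freedom), tests were two-sided, and adjustment covered 8121 genes at a threshold of 0.05. The procedure was tested on simulated data. No genome or sequence was used. Members, lists and tests were chosen with earlier results of these data known. Single values are given for members called in any comparison, the smallest p per ring, base and lid for 60d against 3d, and the highest and lowest mean; Prosbeta5, Prosbeta6, Rpn6, Rpn13, Prosbeta2R2, Prosbeta4R2 and Prosalpha4 were added after their values were seen. The related lists show, by smallest p, at most 3 called genes a direction (60d against 3d) or 2 (other pairs), otherwise the gene of smallest p; cnc and the 30d values of Rad23 and scny were added likewise, as were the marker genes named. Alternatives covered scaling, filter, pseudocount, probe sets, ages fitted, replicate block, 3' to 5' ratio and arrays left out. Plots used matplotlib 3.10.9 (Python 3.11.15).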

Additional observations from a re-analysis of the deposited data

Results flagged for a closer look

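For 7 subunits the change from 30d to 60d differed from the change from 3d to 30d by limma's test of that difference, adjusted over all genes. Rpn3 (1.16), Rpt4 (1.16), Rpn1 (0.93), Prosalpha2 (0.89), Rpt5 (0.87) and Prosbeta2 (0.80) had a negative estimate in the earlier interval and a positive one in the later. Rpn13R (-0.98) had the opposite order. The difference contains the 30d mean in both intervals, so it reads how far the 30d arrays lay from the other ages. Of all genes tested 18.5% passed this test in either direction.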

How the results depend on the processing

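Of 231 recomputed counts and particle differences, 164 stayed close to the values reported and 67 moved. Members called, with all arrays 9 for 30d against 3d, 1 for 60d against 3d, 0 for 60d against 30d and 7 for the difference between intervals, ran from 1 to 19, 0 to 2, 0 to 1 and 0 to 22 when single arrays were left out. All genes called ran from 1526 to 4492, 595 to 2457, 9 to 490 and 0 to 3434. Leaving out the first 3d and 60d arrays gave 24, 7 and 24 members for 30d against 3d, 60d against 3d and the difference between intervals, and 5228, 4053, 67 (60d against 30d) and 3607 genes. Median centring gave 17 members for 30d against 3d and 16 for the intervals, and the 3' to 5' ratio as covariate 19 and 20, with 3256 genes for the intervals. No filter gave 0 members and 2 genes for the intervals and 22 genes for 60d against 30d, while every probe set on its own gave 4 members. Fitting 2 ages only gave 546 genes for 60d against 3d, and quantile normalization and cyclic loess gave 81 and 22 for 60d against 30d. Core minus regulatory particle was 0.35 (cyclic loess), 0.13 (both first arrays out) and 0.17 to 0.31 (single arrays out) for 60d against 3d. It was 0.33 (quantile), 0.30 (cyclic loess) and 0.06 to 0.21 (single arrays out) for 30d against 3d, and -0.03 to 0.13 for 60d against 30d. Including paralogs that passed the filter, an alternative chosen after seeing the data, gave 0.25, 0.20 and 0.01.

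Uncalled 60d against 3d estimates changed sign for Prosalpha2 (-0.029 with median centring, -0.10 with both first arrays out), Prosalpha6 (-0.00024, both out), Prosbeta5R2 (-0.025, median centring), Rpn11 (-0.016 with the covariate, -0.025 to 0.377 with single arrays out, -0.098 with both out) and Rpt4 (-0.286 to 0.055 with single arrays out). Same-numbered arrays correlated at -0.33 to 0.14 in their deviations from the mean of their age, and arrays of different number at -0.55 to 0.57. These values show no pairing by number, but with 3 arrays per age they cannot exclude one. With the replicate block, 6 members were called for 30d against 3d, 1 for 60d against 3d, 0 for 60d against 30d and 2 for the intervals, and 20 and 935 genes for 60d against 30d and the intervals. The cause of these shifts was not tested, and the number of arrays and their spread limit what could be detected.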
